A study of Arabidopsis thaliana with 8 samples.

Results

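Jasmonates are leaf hormones of wounding and defence, and the genes described here are those that make them, sense them, break them down or respond to them. They are 51 loci of Arabidopsis thaliana, chosen by locus identifier out of 27634 rows of the deposited tables. They fall into 15 synthesis genes, 21 signalling genes, 8 turnover genes and 7 response genes. Rosette leaves were compared between DLK2-OE1, a line that overexpresses the α/β hydrolase DLK2 (DWARF14-LIKE 2), and the wild type (WT), with 4 RNA-seq libraries from each genotype. Both genotypes grew for 11 days on plates and 13 days on soil, and leaves were frozen at 24 days with no hormone or wounding treatment named in the labels. Since DLK2-OE1 is 1 line, what DLK2 itself does and what else sets that line off from WT cannot be told apart. The labels name neither the promoter that drives the transgene nor whether each library came from its own plants. The p-values therefore speak of the spread between libraries, which may be technical.

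Jasmonic acid is made from linolenic acid of the chloroplast, where lipoxygenases (LOX), allene oxide synthase (AOS) and allene oxide cyclases (AOC) act in turn. OPR3, OPCL1, ACX1 and KAT2 complete it in the peroxisome, and JAR1 then joins it to isoleucine to give the active hormone. The F-box receptor COI1 binds that conjugate together with a JAZ repressor, the JAZ protein is degraded, and the MYC transcription factors it held are released. Many synthesis genes, JAZ genes and turnover genes are themselves induced by jasmonate in leaves.

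Library totals ranged from 18461205 to 19385026 counts in DLK2-OE1 and from 18097159 to 22139801 in WT. DLK2 (AT3G24420) stood at 120.2, 150.3, 137 and 145 CPM (counts scaled to library size, normalized by TMM) in DLK2-OE1 replicates 1 to 4, against 60.4, 73.5, 85.1 and 73.4 CPM in WT replicates 1 to 4. Each DLK2-OE1 library lay above each WT library, with a log2 fold change of 0.92 (edgeR adjusted p = 0.0178, SE 0.12) and an exact two-sided permutation p of 0.0286, the smallest that 4 libraries against 4 allow. With a library left out the adjusted p of DLK2 reached 0.067 (WT replicate 1), 0.0548 (WT replicate 3) and 0.0574 (DLK2-OE1 replicate 1). On the first principal component, which held 60.3% of the variance, DLK2-OE1 replicates 1 and 2 stood apart at 61.5 and 87.4, whereas DLK2-OE1 replicates 3 and 4 lay at 11.2 and -8.2 and the WT libraries between -47.5 and -27.7. Markers fixed for leaf mesophyll summed to 36179 to 79561 CPM in DLK2-OE1 and to 62463 to 84395 CPM in WT, in keeping with the leaf label. Markers of xylem summed to 67.0 to 276 CPM in DLK2-OE1 and 23.8 to 63.9 CPM in WT, and those of dividing cells to 27.1 to 124 CPM in DLK2-OE1 and 11.6 to 21.3 CPM in WT. In both of these lists DLK2-OE1 replicate 2 held the highest sum. Root markers reached at most 1.15 CPM in DLK2-OE1 and 0.149 CPM in WT, and MYB36 and CASP1 had 0 counts in the 4 WT libraries.

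In DLK2-OE1 leaves 6 of the jasmonate genes fell, and they cover the chloroplast part of synthesis (LOX2, AOS, AOC2), a JAZ repressor (JAZ7) and a pair of response genes (CORI3, CLH1). Of the 51 loci, 48 had enough counts to be tested, and 6 of these 48 were lower and 0 were higher at an edgeR adjusted p under 0.05, adjusted over 18155 genes. Over all genes tested, 1.58% were lower and 2.12% were higher by the same rule. At an unadjusted p under 0.05, 24 of the 48 were lower and 1 was higher, beside 12.0% of all genes lower and 14.3% higher. DESeq2, a second count test, called 19 of the 48 lower and 0 higher, where it called 5.81% of all genes lower and 8.63% higher. Log2 fold changes were negative for 37 of the 48, or 77.1%, with a median of -0.52, whereas 49.5% of all genes were negative, with a median of 0.0. In 12 of the 48 each DLK2-OE1 library lay below each WT library and in 0 above, against 7.29% of all genes below and 7.87% above. RNA from whole leaves cannot tell fewer cells of a type apart from less transcript per cell, and this holds for each value that follows.

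**Figure D1:**
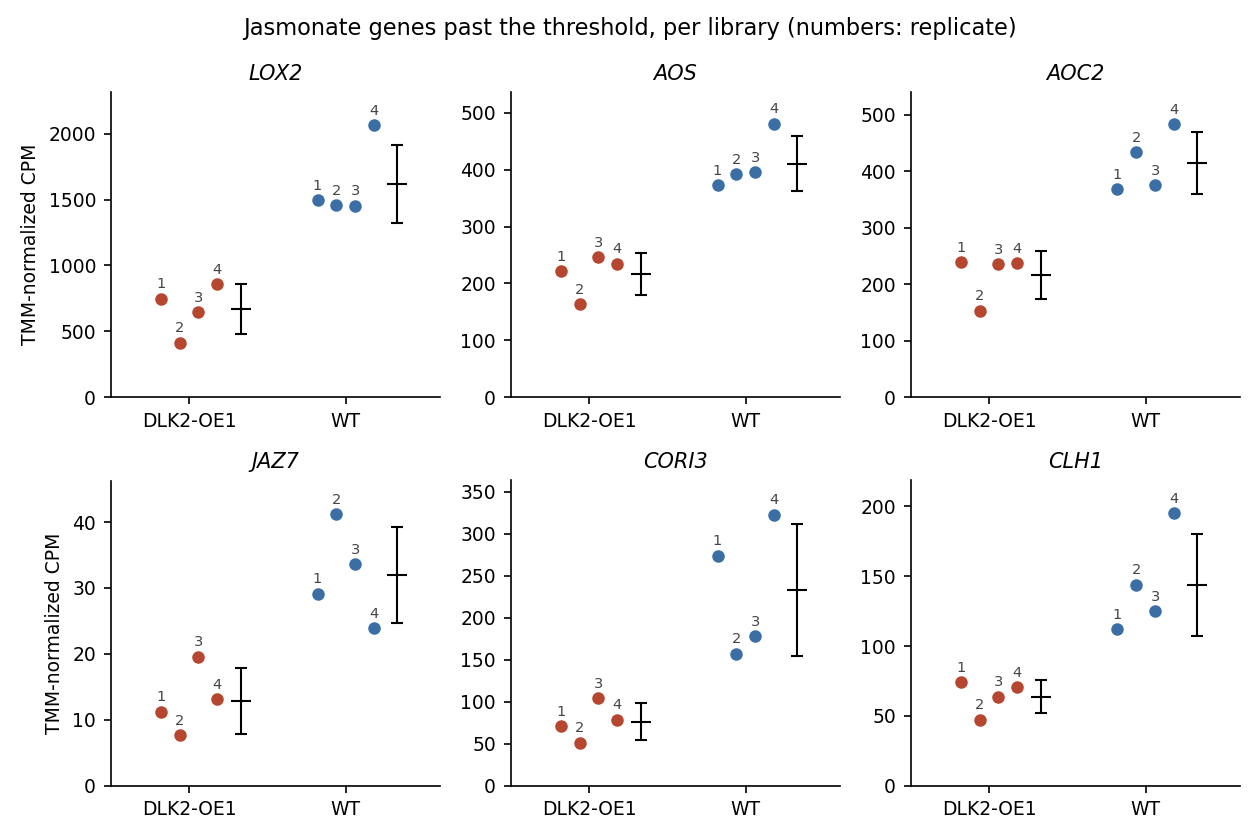
Normalized level (CPM) of the 6 jasmonate genes that fell, by library, with DLK2-OE1 left of WT. Numbered points are libraries by replicate, and black bars are the mean ± SD (n = 4 each). In each panel the 4 DLK2-OE1 points lie below the 4 WT points.

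The 6 calls depended on which libraries were in the fit. Without WT replicate 1, WT replicate 3 or DLK2-OE1 replicate 1, edgeR called 0 jasmonate genes, and 13, 0 and 14 genes in all. In these 3 fits 25, 23 and 21 of the 48 jasmonate genes had an unadjusted p under 0.05, in either direction. Of all genes tested, 3921 of 18442, 3599 of 18447 and 3307 of 18244 did. Leaving out WT replicate 2 left 1 call (CORI3), leaving out WT replicate 4 left 4 (AOS, JAZ7, CORI3 and CLH1), and leaving out DLK2-OE1 replicate 2 left 5 (the 6 less JAZ7). Over all genes, the fits without WT replicate 2, WT replicate 4 and DLK2-OE1 replicate 2 called 118 of 18455, 504 of 18433 and 232 of 18212. Without DLK2-OE1 replicate 3 there were 12 calls and without DLK2-OE1 replicate 4 there were 9, both sets holding the 6. Those fits also called more genes in all, 1368 of 18312 without DLK2-OE1 replicate 3 and 2191 of 18435 without DLK2-OE1 replicate 4. When the 2 libraries that stood apart, DLK2-OE1 replicates 1 and 2, were left out together, 0 jasmonate genes were called. There were 60 calls in all, or 0.328% of the genes tested. An unadjusted p under 0.05, in either direction, was found for 14 of the 48 jasmonate genes and for 2696 of 18319 genes in all. In that fit the log2 fold changes of the 6 genes were -1.09 for LOX2, -0.76 for AOS, -0.80 for AOC2, -0.95 for JAZ7, -1.34 for CORI3 and -1.09 for CLH1. Each kept its negative sign in every fit that was run. Because the libraries of these 6 genes do not overlap, leaving some out could hardly turn a sign, so the signs add nothing to the calls.

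**Figure D2:**
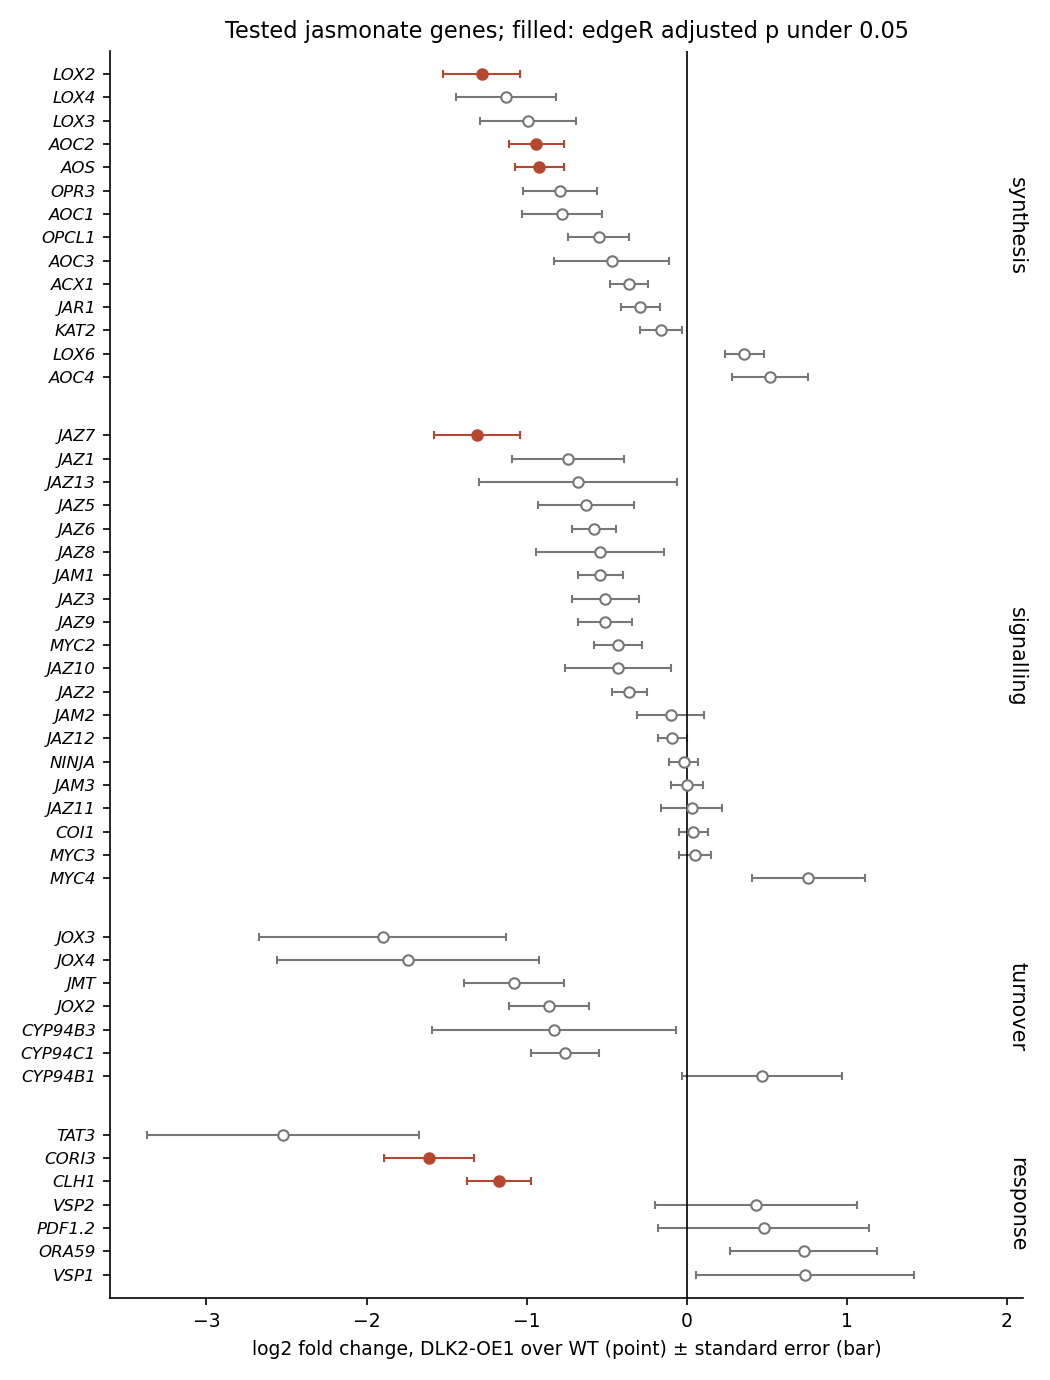
Log2 fold change (DLK2-OE1 over WT) of the tested jasmonate genes, arranged by class, from edgeR. Filled points have an adjusted p under 0.05, bars are the standard error, and the vertical line at 0 marks no difference. Most points lie left of 0, and the filled ones are LOX2, AOS, AOC2, JAZ7, CORI3 and CLH1.

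Synthesis genes held 3 of the 6 calls. Of 15 loci 14 were tested, 3 fell, 0 rose and 11 did not pass, with 12 negative values and a median log2 fold change of -0.67. Their summed level was 1721 to 2566 CPM in DLK2-OE1 libraries and 3486 to 4904 CPM in WT libraries. LOX2 sets much of this sum. Gene by gene, 4 of the 14 had each DLK2-OE1 library below each WT library, against 7.29% of all genes. LOX2 is the chloroplast lipoxygenase known for the early wound response of leaves. LOX2 (AT3G45140, chromosome 3, 16525245 to 16529352, plus strand, 7 exons) stood at 748, 413, 646 and 858 CPM in DLK2-OE1 and at 1496, 1459, 1454 and 2062 CPM in WT. The highest DLK2-OE1 library was below the lowest WT library by a wide margin. Its mean was 666 ± 189 CPM in DLK2-OE1 and 1618 ± 297 CPM in WT (SD, n = 4 each), giving a log2 fold change of -1.28 (adjusted p = 0.0328, SE 0.24). Per length, LOX2 was the most abundant of the 51 in both genotypes, at 243 ± 54.1 FPKM in DLK2-OE1 and 544 ± 121 FPKM in WT. In DLK2-OE1 the next in order, AOC2 at 230 ± 31.3 FPKM and JAZ9 at 229 ± 26.2 FPKM, lay within its spread.

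AOS, a cytochrome P450 that converts the lipoxygenase product to an allene oxide, is encoded by a gene without introns. The AOS gene (AT5G42650, chromosome 5, 17097564 to 17099595, minus strand, 1 exon) had 222, 163, 246 and 235 CPM in DLK2-OE1 and 373, 392, 396 and 481 CPM in WT. Again the libraries did not overlap, and DLK2-OE1 replicate 2 was the lowest. The log2 fold change was -0.92 (adjusted p = 0.0234, SE 0.15), from means of 216 ± 36.8 CPM in DLK2-OE1 and 411 ± 48.1 CPM in WT. AOC2 acts next, closing the ring of the allene oxide, and was the most abundant of the 4 cyclase genes per length in both genotypes. AOC2 (AT3G25770, chromosome 3, 9406669 to 9408071, plus strand, 2 exons) had 239, 153, 236 and 237 CPM in DLK2-OE1 and 368, 434, 375 and 484 CPM in WT. DLK2-OE1 replicate 2 was low, and the other three DLK2-OE1 libraries lay within 3 CPM of one another. AOC2 had a log2 fold change of -0.94 (adjusted p = 0.0303, SE 0.17).

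The cyclases form a family, and AOC1, AOC2 and AOC3 lie in a row on chromosome 3 between 9403779 and 9411090, while AOC4 is on chromosome 1. Their coding sequences show whether short reads can be told apart, which bears on each cyclase value. AOC1 and AOC2 were 90.3% identical over their coding bases, with identical runs of up to 47 bases, and AOC2 and AOC4 were 74.4% identical, with runs of up to 23. AOC3 was 82.7% identical to AOC1 and 82.4% to AOC2, and its longest identical runs, of 73 and 50 bases, were longer than that of AOC1 and AOC2. A stretch of 60 coding bases near the 3′ end, read from the TAIR10.1 genome with its RefSeq annotation, is shown for each gene. It begins at coding base 700 of AOC2, and capitals mark bases that differ from AOC2.
AOC2: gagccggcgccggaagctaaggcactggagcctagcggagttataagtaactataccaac
AOC1: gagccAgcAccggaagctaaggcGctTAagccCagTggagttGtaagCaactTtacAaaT
AOC3: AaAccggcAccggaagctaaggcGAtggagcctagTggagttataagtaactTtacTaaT
AOC4: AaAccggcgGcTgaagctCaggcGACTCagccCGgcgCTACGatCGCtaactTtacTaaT
The stretch differs from AOC2 at 12 bases in AOC1, 9 in AOC3 and 23 in AOC4. The assignment of reads shared by these copies is not given in the sources, and the split among AOC1, AOC2 and AOC3 is therefore uncertain.

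The log2 fold changes of the 4 cyclase genes did not share a sign. AOC1 had 71.3, 39.9, 83.6 and 70.1 CPM in DLK2-OE1 and 79.8, 123, 103 and 149 CPM in WT, with a log2 fold change of -0.78 (adjusted p = 0.0944, SE 0.25). AOC3 had 11.0, 13.5, 15.8 and 20.3 CPM in DLK2-OE1 and 10.7, 14.3, 20.5 and 37.8 CPM in WT, with a log2 fold change of -0.47 (adjusted p = 0.441, SE 0.36) that was -0.02 (adjusted p = 0.974, SE 0.26) without WT replicate 4. AOC4 had 41.8, 51.6, 28.5 and 22.8 CPM in DLK2-OE1 and 22.0, 24.1, 24.6 and 30.2 CPM in WT, with a log2 fold change of 0.52 (adjusted p = 0.198, SE 0.24). None of these 3 passed the test, and AOC4 was highest in the same pair of DLK2-OE1 libraries, 1 and 2, that stood apart. Without that pair its log2 fold change was 0.03 (adjusted p = 0.941, SE 0.15).

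Lipoxygenases also differed among themselves. LOX3 and LOX4, close relatives of each other that act in the wound response and in fertility, had log2 fold changes of -0.99 (adjusted p = 0.0859, SE 0.30) and -1.13 (adjusted p = 0.0655, SE 0.31). LOX4 had 33.3, 26.0, 42.5 and 70.0 CPM in DLK2-OE1 and 62.0, 89.6, 110.3 and 113 CPM in WT, so a single pair of libraries, DLK2-OE1 replicate 4 and WT replicate 1, kept the genotypes from separating. LOX6, the lipoxygenase that supplies jasmonate early after wounding and the main form in roots and xylem contact cells, had 78.5, 89.5, 73.9 and 67.8 CPM in DLK2-OE1 and 52.7, 57.0, 60.5 and 71.7 CPM in WT. It was the one member with a positive value at an unadjusted p under 0.05, at a log2 fold change of 0.36 (adjusted p = 0.114, SE 0.12). Xylem markers were higher in the same DLK2-OE1 libraries, with 4 of 8 tested called higher, beside 2.12% of all genes. Their part in the LOX6 value was not tested.

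Ratios within a library do not depend on its scaling. LOX2 had 9.52, 4.62, 8.74 and 12.7 counts per LOX6 count in DLK2-OE1, and 28.4, 25.6, 24.1 and 28.8 in WT. For AOC2 per AOC4 the ratios were 5.72, 2.97, 8.28 and 10.4 in DLK2-OE1, and 16.8, 18, 15.2 and 16.0 in WT. Both of these ratios were lower in each DLK2-OE1 library than in any WT library, and lowest in DLK2-OE1 replicate 2. Ratios to VSP2 overlapped between the genotypes. LOX2 per VSP2 was 6.47, 2.72, 15.9 and 16.2 in DLK2-OE1 and 10.4, 50.9, 73.7 and 26.6 in WT, and CORI3 per VSP2 was 0.615, 0.337, 2.55 and 1.49 in DLK2-OE1 and 1.91, 5.47, 9.03 and 4.17 in WT. These 4 pairs were chosen with earlier values known, so the ratios carry no test. LOX2 and AOC2 are among the genes that fell without overlap, and LOX6 and AOC4 are the 2 tested synthesis genes with positive log2 fold changes. Dividing the former by the latter therefore favoured lower ratios in DLK2-OE1 from the start.

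**Figure D3:**
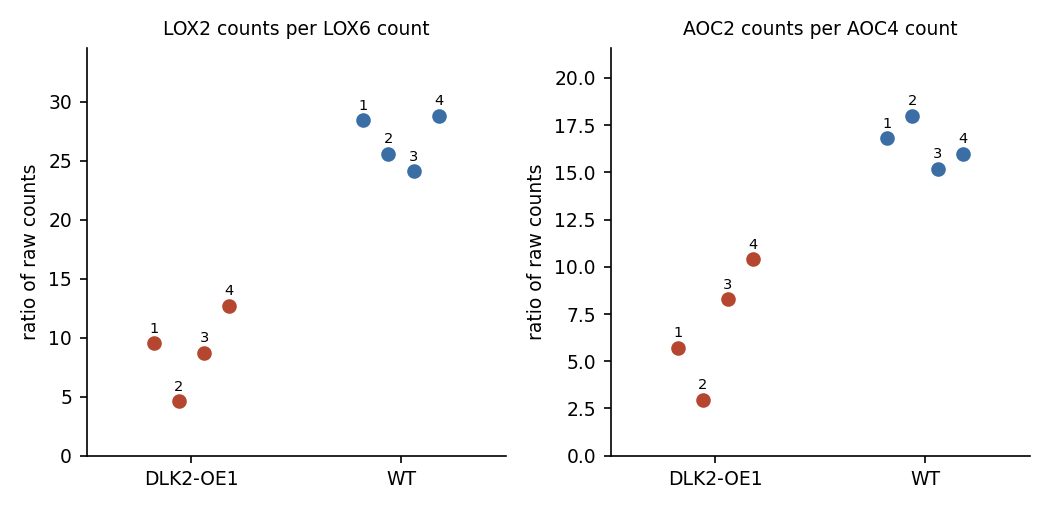
Raw counts of one gene per count of another within each library, with DLK2-OE1 left of WT. Numbered points are libraries by replicate. LOX2 per LOX6 lies between 4.62 and 12.7 in DLK2-OE1 and between 24.1 and 28.8 in WT, and AOC2 per AOC4 between 2.97 and 10.4 in DLK2-OE1 and between 15.2 and 18 in WT.

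Of the genes of the peroxisomal steps, and of JAR1 and DAD1, none passed. OPR3, which reduces the cyclized intermediate, had 204, 148, 284 and 237 CPM in DLK2-OE1 and 265, 449.6, 380.1 and 414 CPM in WT, a log2 fold change of -0.79 (adjusted p = 0.074, SE 0.23). OPCL1, the ligase that activates the intermediate with coenzyme A, had a log2 fold change of -0.55 (adjusted p = 0.114, SE 0.19). ACX1, the acyl-CoA oxidase of the β-oxidation steps, had 85.1, 85.7, 102 and 93.5 CPM in DLK2-OE1 and 109, 108, 107 and 145 CPM in WT. Its libraries did not overlap, but the gap between 102 and 107 CPM was narrow and the log2 fold change was -0.36 (adjusted p = 0.116, SE 0.12). KAT2, the thiolase that closes each round of β-oxidation, had a value of -0.16 (adjusted p = 0.466, SE 0.13), and JAR1 of -0.29 (adjusted p = 0.182, SE 0.12). DAD1, a phospholipase known from anthers, had 2 counts in DLK2-OE1 replicate 1 and 0 in the other libraries and could not be tested.

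**Figure D4:**
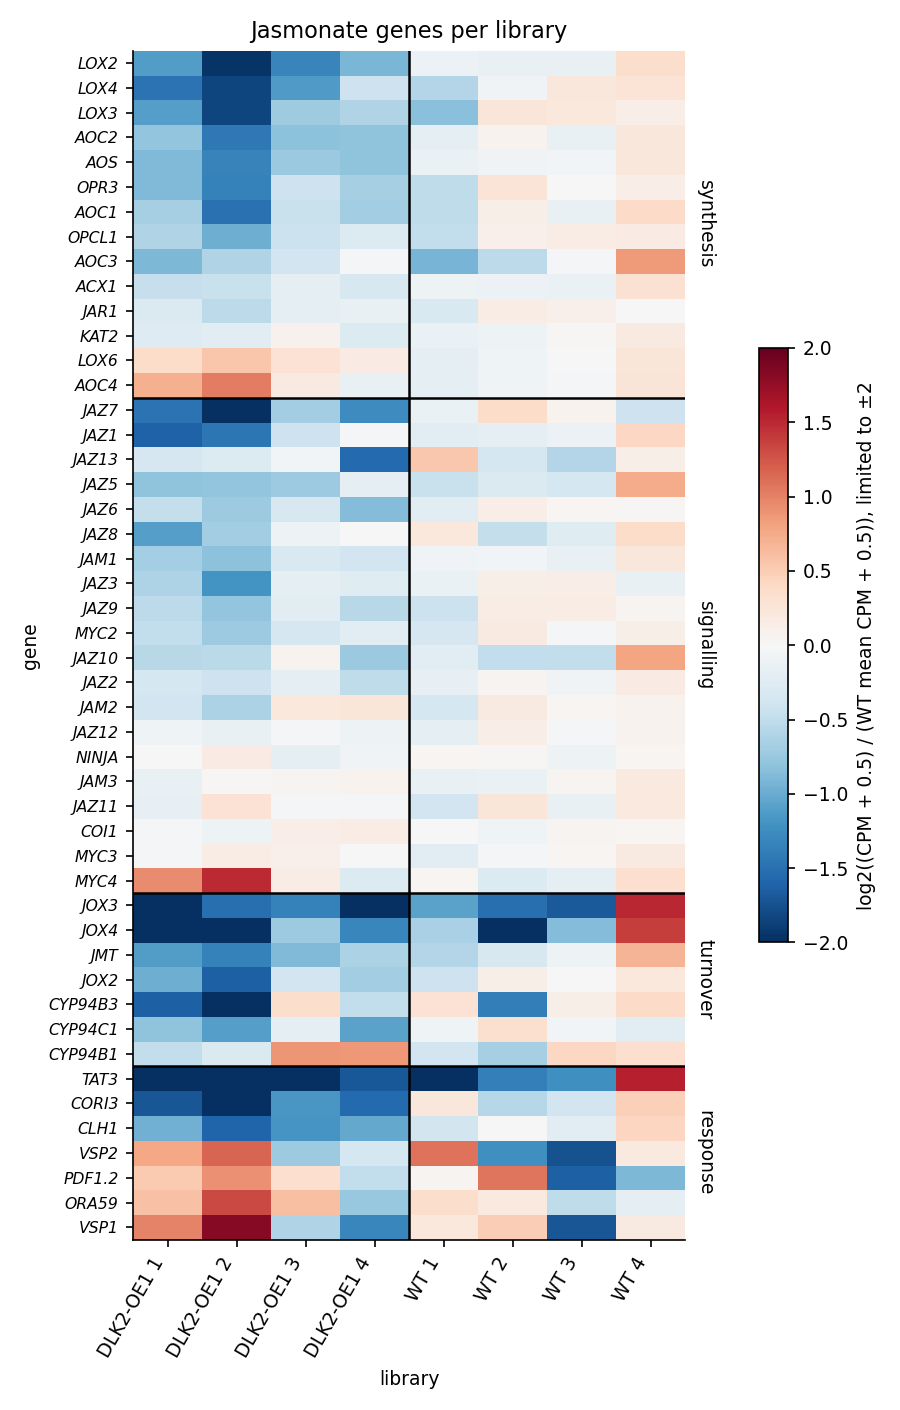
Level of each tested jasmonate gene in each library relative to the WT mean, as log2((CPM + 0.5) / (WT mean CPM + 0.5)), limited to 2 in either direction. Rows are genes by class, columns are DLK2-OE1 replicates 1 to 4 and then WT replicates 1 to 4. Synthesis rows are mostly below 0 in DLK2-OE1, most so in replicate 2, and the VSP1 and VSP2 rows differ between DLK2-OE1 replicates.

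Among the signalling genes the receptor and the adaptor had values near 0, and JAZ7 was the one gene that fell. Of 21 loci 20 were tested, 1 fell, 0 rose and 19 did not pass, with 16 negative values and a median log2 fold change of -0.43. COI1 averaged 31.4 ± 2.67 CPM in DLK2-OE1 and 30.5 ± 1.34 CPM in WT (SD, n = 4 each), for a log2 fold change of 0.04 (adjusted p = 0.789, SE 0.09). NINJA, the adaptor between JAZ proteins and the TOPLESS corepressor, had a log2 fold change of -0.02 (adjusted p = 0.911, SE 0.09).

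JAZ7 is a small JAZ repressor that is strongly induced by jasmonate. The JAZ7 gene (AT2G34600, chromosome 2, 14573030 to 14573952, plus strand, 2 exons) had 11.2, 7.64, 19.6 and 13.1 CPM in DLK2-OE1 and 29.1, 41.2, 33.6 and 23.9 CPM in WT. The 4 DLK2-OE1 libraries lay below the 4 WT libraries, with DLK2-OE1 replicate 3 the nearest to WT. The log2 fold change was -1.31 (adjusted p = 0.0425, SE 0.27), from means of 12.9 ± 5.03 CPM in DLK2-OE1 and 31.9 ± 7.31 CPM in WT. Of the 13 JAZ genes 12 were tested, and 11 of the 12 had negative values, with a median log2 fold change of -0.52.

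JAZ6, JAZ2 and JAZ3 also had libraries that did not overlap, without passing the test. With JAZ7, 4 of the 12 tested JAZ genes had each DLK2-OE1 library below each WT library, against 7.29% of all genes. JAZ6, just outside the threshold, had 138, 117, 155 and 106 CPM in DLK2-OE1 and 165, 212, 199 and 196 CPM in WT, a log2 fold change of -0.58 (adjusted p = 0.0542, SE 0.14). JAZ2 had 57.0, 54.9, 64.5 and 51.3 CPM in DLK2-OE1 and 65.3, 75.8, 69.4 and 82.1 CPM in WT, a log2 fold change of -0.36 (adjusted p = 0.0768, SE 0.11). JAZ3 had 56.2, 37.8, 76.8 and 73.7 CPM in DLK2-OE1 and 79.5, 94.7, 94.8 and 78.3 CPM in WT, a log2 fold change of -0.51 (adjusted p = 0.158, SE 0.21). The JAZ2 and JAZ3 gaps between genotypes were small, 64.5 in DLK2-OE1 against 65.3 CPM in WT and 76.8 in DLK2-OE1 against 78.3 CPM in WT. Per length, JAZ9 was the most abundant JAZ transcript, at 229 ± 26.2 FPKM in DLK2-OE1 and 295 ± 53.2 FPKM in WT, ahead of JAZ6 at 108 ± 19.1 FPKM in DLK2-OE1 and 145 ± 15.3 FPKM in WT. JAZ9 had a log2 fold change of -0.51 (adjusted p = 0.107, SE 0.17).

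The remaining JAZ genes spread more between libraries. JAZ1 had 15.2, 17.2, 35.9 and 46.8 CPM in DLK2-OE1 and 40.7, 42.3, 44.1 and 64.1 CPM in WT, so DLK2-OE1 replicates 1 and 2 were low and replicates 3 and 4 reached toward or into the WT range. Its log2 fold change was -0.74 (adjusted p = 0.212, SE 0.35), and -0.20 without DLK2-OE1 replicates 1 and 2. JAZ5 and JAZ10, both low, were each highest in WT replicate 4, at 18.7 and 17.8 CPM. Their log2 fold changes of -0.63 (SE 0.30) and -0.43 (SE 0.33) were -0.26 (SE 0.20) and -0.02 (SE 0.22) without that library. JAZ8 and JAZ13, below 3 CPM in each library, had log2 fold changes of -0.54 (SE 0.40) and -0.68 (SE 0.62), and JAZ11 and JAZ12 of 0.03 (SE 0.19) and -0.09 (SE 0.09). JAZ4 had 4 to 11 counts per library and could not be tested.

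Of the bHLH factors, the activators and the repressors each included genes with values near 0. MYC2, the chief activator of the pathway, had 102, 86.8, 114 and 124 CPM in DLK2-OE1 and 114, 163, 142 and 157 CPM in WT, a log2 fold change of -0.43 (adjusted p = 0.113, SE 0.15). MYC3 had a log2 fold change of 0.05 (adjusted p = 0.77, SE 0.10). MYC4 had 27.9, 41.0, 15.9 and 11.8 CPM in DLK2-OE1 and 14.7, 11.7, 12.6 and 18.2 CPM in WT, so DLK2-OE1 replicates 1 and 2 exceeded the WT range and replicates 3 and 4 lay within it. Its log2 fold change of 0.76 (adjusted p = 0.208, SE 0.35) was -0.04 without DLK2-OE1 replicates 1 and 2. JAM1, a bHLH repressor that competes with the MYC factors, had 35.4, 32.1, 46.4 and 43.8 CPM in DLK2-OE1 and 54.5, 55.2, 51.8 and 67.4 CPM in WT, a log2 fold change of -0.54 (adjusted p = 0.0604, SE 0.14). Its relatives JAM2 and JAM3 had values of -0.10 (SE 0.21) and 0.00 (SE 0.10).

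Turnover genes passed the test in 0 of 7 cases, although their median log2 fold change of -0.86 was the most negative of the 4 classes. At an unadjusted p under 0.05, 4 of the 7 were lower, beside 12.0% of all genes. DESeq2 called 3 lower (CYP94C1, JOX2 and JMT), beside 5.81% of all genes. CYP94C1, a P450 that oxidizes jasmonoyl-isoleucine, had 17.0, 13.7, 26.2 and 14.0 CPM in DLK2-OE1 and 28.3, 37.5, 28.8 and 25.6 CPM in WT, a log2 fold change of -0.76 (adjusted p = 0.0728, SE 0.21). JOX2, a dioxygenase that hydroxylates jasmonic acid, was the most abundant turnover gene per length, at 39.3 ± 10.6 FPKM in DLK2-OE1 and 66.0 ± 12.7 FPKM in WT. Its libraries read 48.9, 30.9, 74.1 and 59.5 CPM in DLK2-OE1 and 73.2, 106, 97.5 and 112 CPM in WT. DLK2-OE1 replicate 3 lay just above WT replicate 1, so the genotypes overlapped, and the log2 fold change was -0.86 (adjusted p = 0.074, SE 0.25). JMT, which methylates jasmonic acid, had 3.0, 2.49, 3.65 and 4.4 CPM in DLK2-OE1 and 4.6, 5.6, 6.56 and 11.7 CPM in WT. These did not overlap, and the log2 fold change was -1.08 (adjusted p = 0.0751, SE 0.31).

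JOX3 and JOX4 had the most negative fold changes of the class, and a single WT library set them. JOX3 had 1.7, 2.75, 3.11 and 1.75 CPM in DLK2-OE1 and 3.89, 2.75, 2.38 and 25.8 CPM in WT. Its log2 fold change of -1.90 (adjusted p = 0.159, SE 0.77) was -0.38 (adjusted p = 0.465, SE 0.31) without WT replicate 4. JOX4 had 1.5, 0.901, 5.58 and 3.55 CPM in DLK2-OE1 and 5.9, 1.72, 4.97 and 25.5 CPM in WT. Its value of -1.74 (adjusted p = 0.212, SE 0.82) was -0.55 (adjusted p = 0.621, SE 0.64) without that library. CYP94B1 and CYP94B3, the other hydroxylases of the conjugate, stayed below 4 CPM in each library, with log2 fold changes of 0.47 (SE 0.50) and -0.83 (SE 0.76). JOX1 had 1 count in DLK2-OE1 replicate 2 and 0 in the other libraries.

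Response genes had log2 fold changes of both signs. Of 7 tested, 2 fell, 0 rose and 5 did not pass, with 3 negative values and a positive median log2 fold change of 0.43. CORI3, a cystine lyase, was the most strongly lowered of the 6 genes. CORI3 (AT4G23600, chromosome 4, 12310379 to 12313212, plus strand, 7 exons) had 71.1, 51.3, 104 and 78.7 CPM in DLK2-OE1 and 274, 157, 178 and 323 CPM in WT. The highest DLK2-OE1 library, replicate 3, lay well below the lowest WT library, replicate 2. Means were 76.2 ± 21.7 CPM in DLK2-OE1 and 233 ± 78.7 CPM in WT, a log2 fold change of -1.61 (adjusted p = 0.027, SE 0.28). CLH1, a chlorophyllase induced by coronatine and methyl jasmonate, fell as well. The CLH1 gene (AT1G19670, chromosome 1, 6803486 to 6805092, minus strand, 2 exons) had 73.9, 47.1, 63.6 and 70.7 CPM in DLK2-OE1 and 112, 144, 125 and 195 CPM in WT. The genotypes separated without overlap, and the log2 fold change was -1.17 (adjusted p = 0.0258, SE 0.20).

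TAT3, VSP1 and VSP2 varied strongly between replicates of a genotype. TAT3, a tyrosine aminotransferase induced by jasmonate and wounding, had 26.5, 15.9, 47.0 and 70.9 CPM in DLK2-OE1 and 53.1, 88.4, 98.0 and 679 CPM in WT. WT replicate 4 was far above the rest, and the log2 fold change of -2.52 (adjusted p = 0.107, SE 0.85) was -1.0 (adjusted p = 0.218, SE 0.47) without it. VSP1, an acid phosphatase of the vegetative storage proteins, had 59.2, 106, 19.2 and 11.6 CPM in DLK2-OE1 and 34.1, 41.8, 8.69 and 33.6 CPM in WT. VSP2, its close copy, had 116, 152, 40.7 and 53.0 CPM in DLK2-OE1 and 144, 28.6, 19.7 and 77.4 CPM in WT. Both were highest of the DLK2-OE1 libraries in replicates 1 and 2, the libraries in which JAZ1 and the median turnover gene were lowest. VSP1 had a log2 fold change of 0.74 (adjusted p = 0.516, SE 0.68), and VSP2 of 0.43 (adjusted p = 0.698, SE 0.63). Without DLK2-OE1 replicates 1 and 2 the values changed sign, to -0.93 for VSP1 and -0.51 for VSP2, and neither was called in any fit. The VSP1 and VSP2 coding sequences were 90.4% identical, with identical runs of up to 54 bases, so the split of reads between them is uncertain.

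**Figure D5:**
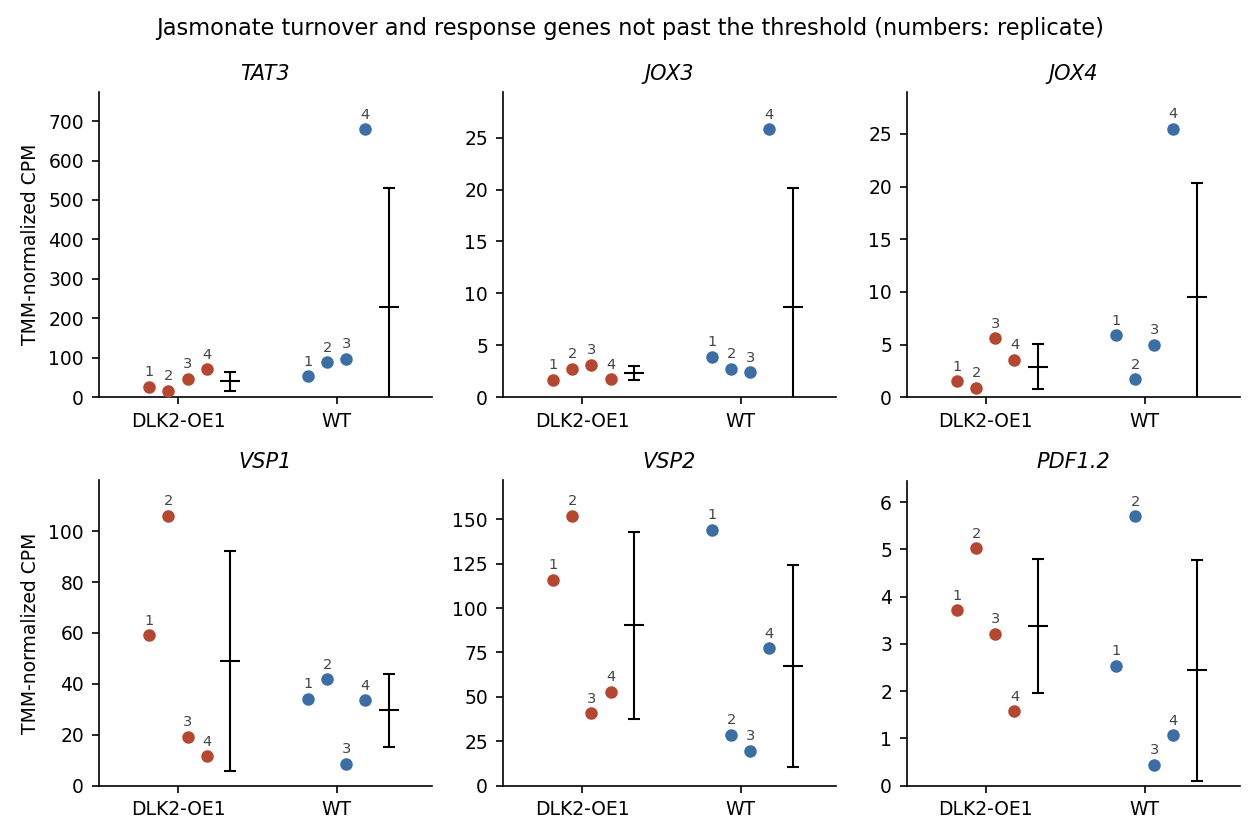
Normalized level (CPM) of jasmonate genes whose replicates of a genotype spread widely, by library, with DLK2-OE1 left of WT. Numbered points are libraries by replicate, and black bars are the mean ± SD (n = 4 each), cut at 0 where they would go below it. TAT3, JOX3 and JOX4 are highest in WT replicate 4, and VSP1 and VSP2 are highest of the DLK2-OE1 libraries in replicates 1 and 2.

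PDF1.2 and ORA59 belong to the ERF branch, which jasmonate drives together with ethylene, and both had low levels in either genotype. PDF1.2, a defensin that marks this branch, had 3.71, 5.02, 3.22 and 1.58 CPM in DLK2-OE1 and 2.54, 5.7, 0.447 and 1.07 CPM in WT, a log2 fold change of 0.48 (adjusted p = 0.676, SE 0.66). ORA59 had 3.66, 6.39, 3.7 and 1.13 CPM in DLK2-OE1 and 3.01, 2.65, 1.44 and 1.94 CPM in WT, a log2 fold change of 0.73 (adjusted p = 0.336, SE 0.46). The genotypes overlapped for both genes.

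MYC factors bind the G-box CACGTG and its variant CACATG, and ERF factors bind the GCC-box GCCGCC, so the members' promoters were searched for these letters on both strands. The 250 bases before the RefSeq gene start in TAIR10.1 held CACGTG in 9 of 51 members, or 17.6%, and in 6.49% of 27437 protein-coding promoters. CACATG was present in 11 of 51, or 21.6%, against 11.1% of all, and GCCGCC in 2 of 51, or 3.92% (PDF1.2 and ORA59), against 1.87% of all. Of the 6 genes that fell, AOS and JAZ7 held CACGTG, LOX2 and CLH1 held CACATG, and AOC2 and CORI3 held none of the 3 in this window. A match of 6 letters is a description of the sequence and does not show binding. The 120 bases before the start of these 4 genes are given on the strand of the gene, with the motif in capitals, to show where it lies.
LOX2, chr3:16525125-16525244, plus strand: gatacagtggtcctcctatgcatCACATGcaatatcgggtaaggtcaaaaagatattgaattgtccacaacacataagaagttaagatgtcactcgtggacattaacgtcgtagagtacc
AOS, chr5:17099596-17099715, minus strand: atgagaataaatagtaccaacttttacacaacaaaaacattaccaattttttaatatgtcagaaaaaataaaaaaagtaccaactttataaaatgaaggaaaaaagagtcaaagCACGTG
JAZ7, chr2:14572910-14573029, plus strand: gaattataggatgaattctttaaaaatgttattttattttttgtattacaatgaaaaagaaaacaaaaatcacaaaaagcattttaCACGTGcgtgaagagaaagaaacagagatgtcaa
CLH1, chr1:6805093-6805212, minus strand: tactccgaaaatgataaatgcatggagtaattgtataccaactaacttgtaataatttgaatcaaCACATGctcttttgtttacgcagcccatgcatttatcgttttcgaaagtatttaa
The motif begins 97 bases before the annotated start in LOX2, 6 in AOS, 34 in JAZ7 and 55 in CLH1. The annotated start is the RefSeq gene boundary and was not measured in these leaves.

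Other genes of the pathway, from a list of 41 with 33 tested, held 4 genes that fell and 0 that rose by edgeR. Over all genes tested, edgeR called 1.58% lower and 2.12% higher. DESeq2 called 6 of the 33 lower and 2 higher, beside 5.81% of all genes lower and 8.63% higher. Values were negative for 21 of the 33, with a median log2 fold change of -0.21, where 49.5% of all genes were negative, with a median of 0.0. ARGAH2, a jasmonate-induced arginase, had 75.2, 48.0, 86.4 and 102 CPM in DLK2-OE1 and 223, 144, 167 and 222 CPM in WT, a log2 fold change of -1.28 (adjusted p = 0.0318, SE 0.24). GTR1, a transporter of glucosinolates and jasmonates, had 92.0, 79.5, 90.3 and 71.3 CPM in DLK2-OE1 and 129.6, 153, 180 and 127 CPM in WT, a log2 fold change of -0.82 (adjusted p = 0.0258, SE 0.14). HPL1, the hydroperoxide lyase that competes with AOS for its substrate, fell by 1.07 on the log2 scale (adjusted p = 0.0303, SE 0.19), and KAT5, another thiolase of β-oxidation, fell by 0.58 (adjusted p = 0.0374, SE 0.11). All 4 genes had DLK2-OE1 libraries below the WT libraries.

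Other lists also varied between these libraries. The median deviation from the WT mean over the 14 tested synthesis genes was -0.70, -1.14, -0.39 and -0.35 on the log2 scale in DLK2-OE1 replicates 1 to 4. For the 7 mesophyll markers it was -0.53, -1.16, -0.30 and 0.09, with 0 of 7 called. For touch and early wound genes, which respond within minutes of handling, it was -1.03, -0.91, -0.28 and 0.77, with 0 of 8 called. The touch and early wound genes summed to 1235 to 2735 CPM in DLK2-OE1 and 2095 to 2533 CPM in WT. In WT replicates 1 to 4 the median was -0.25, -0.04, 0.02 and 0.25 for synthesis genes. There it was 0.11, 0.19, -0.07 and -0.33 for mesophyll markers, and -0.23, 0.03, 0.13 and 0.13 for touch and early wound genes. WT replicate 4 was the highest WT library for synthesis genes and the lowest for mesophyll markers. Flower markers summed to 4.36 to 9.65 CPM in DLK2-OE1 and 11.0 to 38.8 CPM in WT. Most of that sum was SEP3, which fell, at a mean of 4.2 CPM in DLK2-OE1 and 23.7 CPM in WT. AG averaged 0.721 CPM in DLK2-OE1 and 1.9 CPM in WT, while AP1, AP3 and PI had too few counts to be tested and means of 0.651, 0.325 and 0.602 CPM in DLK2-OE1 and 0.307, 0.197 and 0.222 CPM in WT. Dividing-cell markers had 4 of 8 tested called higher and phloem markers 1 of 6, beside 2.12% of all genes. Markers of epidermis, trichomes and guard cells had 0 of 7 called, with 4 positive and 3 negative values and a median log2 fold change of 0.03. Among them the epidermis marker PDF1 averaged 92.6 ± 86.6 CPM in DLK2-OE1 and 10.1 ± 19.0 CPM in WT, and GL2 6.39 and 1.46 CPM. GL1, too low to be tested, averaged 0.756 CPM in DLK2-OE1 and 0.0246 CPM in WT. Each of PDF1, GL2 and GL1 was highest in DLK2-OE1 replicate 2. The part of these lists in the lower jasmonate genes was not tested.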

How the data were processed

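RNA was measured in rosette leaves of DLK2-OE1 and WT, 4 libraries each. The deposited tables give counts and FPKM per gene for each library, per the file headers. Per the submitters' processing notes, the build was TAIR10 and the tools included StringTie 1.3.1, HISAT2, RSEM, fastp 0.18.0 and Bowtie2 2.2.8, with no roles given. The strand setting, the annotation release and the treatment of reads shared by paralogs are not stated in the sources used here. Without a strand setting, COI1, MYC2, JAZ10, JAZ12, JAZ13 and JAM3, the 6 members that overlap a gene on the opposite strand, are uncertain. Length implied by count and FPKM was a median 0.88 of the longest RefSeq transcript over 47 members. Replicates differed beyond sampling noise (chi-square per degree of freedom at least 11.4).

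Counts were tested with edgeR 4.0.16 (R 4.3.3), using TMM, filterByExpr by genotype, robust glmQLFit and glmQLFTest, Benjamini-Hochberg adjustment over 18155 genes, threshold 0.05. Common biological coefficient of variation was 0.222. Each SE was obtained as the fold change on the log2 scale over the root of the quasi-likelihood F. CPM uses TMM-normalized library sizes, and FPKM is used to compare levels between genes. Alternatives were DESeq2 1.42.0, its size factors, 2 other count filters, limma 3.58.1 (voom, and trend on log2(FPKM + 1) and log2(FPKM + 0.1)), a replicate block and the omission of libraries. DLK2 was also tested by exact permutation in SciPy 1.17.1. The test procedure was tested on simulated counts. It recovered 14 of 67 genes changed 1.5-fold, 45 of 67 changed 2-fold and 66 of 66 changed 4-fold, all from 5 CPM up. Of its 136 calls 11 were false. Simulated counts were drawn independently for each gene, without differences shared by many genes of a library, such as those that set DLK2-OE1 replicates 1 and 2 apart. The simulation therefore does not give the rates of recovery or of false calls in the real libraries. Promoters and coding sequences were read from TAIR10.1 with its RefSeq annotation, in which all 51 members matched by locus, and coding sequences were aligned with Biopython 1.88.

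Members and lists were chosen with earlier results of these data known. All 51 members are described, with full values for those past the threshold, those whose libraries did not overlap and the most abundant of each class, and other pathway genes are named where they passed. GES, PR3, PR4, PDF1.3, PDF1.2c and ERF1 were chosen after their values were seen.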

Additional observations from a re-analysis of the deposited data

Results flagged for a closer look

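In 13 cases 1 library lay far from the other three of its genotype, by Dixon's test. Chance flags about 1 in 20 groups, and 96 groups of 4 libraries were examined. Of the 13, 7 were high values in WT replicate 4. LOX2 there stood at 2062 CPM, the nearest WT library at 1496 CPM. ACX1 stood at 145 CPM (nearest 109), JAZ1 at 64.1 (nearest 44.1), JAZ5 at 18.7 (nearest 8.89) and JAZ10 at 17.8 (nearest 8.61). JOX3 stood at 25.8 CPM (nearest 3.89) and TAT3 at 679 CPM (nearest 98.0). WT replicate 4 was the highest WT library for 29 of the 48 tested members, and WT replicate 1 the lowest for 27.

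WT replicate 1 was low for LOX3, at 84.0 CPM with the nearest WT library at 165 CPM, and for OPCL1, at 144 CPM with the nearest at 217 CPM. WT replicate 3 was low for NINJA, at 37.6 CPM with the nearest at 41.0 CPM. In DLK2-OE1, replicate 2 was low for AOC2, at 153 CPM with the nearest at 236 CPM. Replicate 3 was high for KAT2, at 441 CPM with the nearest at 354 CPM, and replicate 4 for JAZ5, at 9.7 CPM with the nearest at 6.43 CPM.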

How the results depend on the processing

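The 6 calls were the same 6 genes with DESeq2 size factors, with either other count filter, with limma-voom and with limma-trend on FPKM at both pseudocounts. On the FPKM scale the median of all genes shifted to 0.121 and 0.134, and 33 of 48 members were negative. DESeq2 called 19 members and 2621 genes, limma-voom 264 genes, and limma-trend 288 and 340 genes with pseudocounts of 1 and 0.1. Of the other pathway genes DESeq2 called 8 (6 lower and 2 higher) and limma-trend 1 with either pseudocount. The cause of these differences was not tested. The labels do not say what same-numbered libraries share beyond the number. Their deviations correlated at -0.029, 0.062, 0.123 and -0.095, which cannot show that they share nothing. With the replicate block, 245 genes, 4 members (LOX2, LOX4, CORI3 and CLH1) and 2 other pathway genes were called.

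Leaving out 1 library at a time gave 0 to 2191 genes, 0 to 12 members and 0 to 5 other pathway genes, and a DLK2 log2 fold change of 0.83 to 0.99. Without DLK2-OE1 replicates 1 and 2 together, 60 genes, 0 members and 0 other pathway genes were called, with 2 libraries against 4.

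Signs reversed for members that were not called. Without DLK2-OE1 replicates 1 and 2 the log2 fold change was -0.04 for MYC4, -0.02 for JAZ11, 0.24 for JAM2, 0.07 for JAM3, 0.01 for CYP94B3, -0.93 for VSP1, -0.51 for VSP2 and -0.02 for PDF1.2. With limma-trend it was 0.06 for JAZ12, 0.12 for NINJA and 0.02 for JAM2 at both pseudocounts, and 0.14 and 0.15 for JAM3. JAM3 was 0.0 with limma-voom and the replicate block. With 1 library left out, values ran from -0.02 to 0.11 for MYC3, -0.09 to 0.12 for JAZ11, -0.09 to 0.03 for NINJA, -0.23 to 0.05 for JAM2 and -0.05 to 0.06 for JAM3.

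Depth limits the genes at low counts: DAD1, JOX1 and JAZ4 could not be tested. JAZ13, CYP94B1 and CYP94B3, also low, had an SE of 0.50 or more. The SE was above 0.50 too in genes with more counts, such as TAT3 (0.85), VSP1 (0.68) and VSP2 (0.63). JAZ8, with 13 to 53 counts, had an SE of 0.40. The part of depth in these SEs was not tested. With 4 libraries a genotype, of a single line, a p that misses the threshold does not show that values were equal.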

Other observations

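Several jasmonate-related genes outside the 51, chosen after their values were seen, had large differences that did not pass the test. GES, the geranyllinalool synthase of wounded leaves, had 3.21, 2.83, 7.18 and 6.88 CPM in DLK2-OE1 and 9.26, 9.09, 12.5 and 209 CPM in WT, a log2 fold change of -3.59 (edgeR adjusted p = 0.0919, SE 1.13). As with TAT3, WT replicate 4 held the high value. The other chosen genes that could be tested had positive values. In the list of other pathway genes that they come from, 21 of the 33 tested were negative and 12 positive. The chosen genes thus do not show the direction of that list. PR3, a basic chitinase, had 7.96, 13.8, 6.06 and 3.05 CPM in DLK2-OE1 and 2.36, 2.06, 1.34 and 3.47 CPM in WT, a log2 fold change of 1.74 (adjusted p = 0.0605, SE 0.45). PDF1.3, a defensin close to PDF1.2, had a log2 fold change of 2.2 (adjusted p = 0.0905, SE 0.69), and PR4 of 0.83 (adjusted p = 0.166, SE 0.35). PR3, PR4 and PDF1.3 were each highest in DLK2-OE1 replicate 1 or 2. Chosen after their values were seen, PR3, PR4 and PDF1.3 cannot stand for the ERF branch. PDF1.2c and ERF1 were too low to be tested. PDF1.2c averaged 0.246 CPM in DLK2-OE1 and 0.437 CPM in WT, where replicate 2 alone had 1.38 CPM. ERF1 averaged 0.347 CPM in DLK2-OE1 and 0.308 CPM in WT.

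The 51 genes together held 0.404, 0.368, 0.400 and 0.379% of counts in DLK2-OE1 replicates 1 to 4, and 0.501, 0.556, 0.553 and 0.783% in WT replicates 1 to 4.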
